A study of Mus musculus with 4 samples.

Results

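The transcripts of 40 genes of S phase and G2/M phase were followed across the droplet-based scRNA-seq libraries of the developing and adult mouse prostate. The list holds 16 S members and 24 G2/M members, of 31053 genes counted per cell. Members were chosen by name, from knowledge of the cell cycle, and all 40 were found in the 4 libraries. The adult libraries are 3 independent runs of sorted EPCAM+ cells from P2-*Runx1*:RFP mice of the ICR (CD-1) strain, older than 8 weeks, whose RFP reports activity of the proximal *Runx1* promoter P2. Cells were sorted by RFP (RFP+ or RFP-) and by lobe, namely anterior (AP), dorsolateral (DLP) or ventral (VP), and each sorted population, pooled from several mice, received its own MULTI-seq barcode, a lipid-anchored DNA tag. Runs 1 and 2 also held cells of mice castrated for more than 4 weeks, with the lobes pooled in run 1 and kept apart in run 2, and run 3 held intact mice alone. The barcode of intact DLP RFP+ cells failed in runs 1 and 2. The explant library holds EPCAM+ cells of ICR (CD-1) urogenital sinuses taken at E15.5 and cultured with 10 µM dihydrotestosterone, collected on days 0, 1, 3 and 6. Each day is 1 pool in 1 library, so explant days were compared without replicates and without a test.

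A dividing cell copies its DNA in S phase and separates the copies in mitosis, and it makes different transcripts for each task. In S phase the MCM helicase opens the DNA, the clamp PCNA holds the polymerase on it, and thymidylate synthase and ribonucleotide reductase supply its building blocks. In G2 and mitosis the kinase CDK1 with its cyclins drives the condensation of chromosomes and the building of the spindle, and the anaphase-promoting complex then lets the cell leave mitosis. Prostate buds grow out of the urogenital sinus epithelium under androgen, whereas few cells of the adult prostate divide. E2F proteins are known to switch on many S phase genes, and many G2/M genes are known to be controlled through a CHR element together with CCAAT boxes, which NF-Y binds.

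A promoter window of 300 bases, from 250 before to 50 after the start, was found for 35 of the 40 members in RefSeq's annotation of GRCm38.p6, the assembly of the reference that the authors counted on. On either strand, a CHR element, written TTTGAA or TTCGAA, was present in 17 of 21 G2/M promoters (81.0%), in 3 of 14 S promoters (21.4%) and in 19.4% of 27025 promoters of all genes. CCAAT was present in 90.5% of the G2/M promoters, 78.6% of the S promoters and 37.9% of all promoters. An E2F site, written TTTCCCGC, TTTGGCGC, TTTCGCGC or TTTGCCGC, was present in 1 of 21 G2/M promoters (4.76%), 5 of 14 S promoters (35.7%) and 2.32% of all promoters. The 180 bases before the start are printed for 6 members that differed between adult basal-like and luminal-like cells, 4 G2/M members that were lower in basal-like cells and 2 S members that were higher, chosen after that test was seen and for the motifs they hold. The same stretch of the other called members with a promoter holds CCAAT but no CHR match in 3 G2/M members (*Plk1*, *Ccnb1* and *Cenpe*) and CCAAT but no E2F match in 3 S members (*Slbp*, *Rrm2* and *Mcm3*). Capitals mark the motif matches, which on the opposite strand appear as their reverse complements. The lines read 5′ to 3′ on the gene's strand, for *Ube2c* (chr2:164769749-164769928, plus strand), *Cdk1* (chr10:69352913-69353092, minus), *Ccnb2* (chr9:70421555-70421734, minus), *Cdc20* (chr4:118437344-118437523, minus), *Mcm5* (chr8:75109329-75109508, plus) and *Mcm7* (chr5:138171884-138172063, minus).
Ube2c: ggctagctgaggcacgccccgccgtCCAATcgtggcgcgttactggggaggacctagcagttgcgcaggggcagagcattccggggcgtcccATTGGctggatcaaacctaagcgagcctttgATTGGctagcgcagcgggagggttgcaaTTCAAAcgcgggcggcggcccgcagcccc
Cdk1: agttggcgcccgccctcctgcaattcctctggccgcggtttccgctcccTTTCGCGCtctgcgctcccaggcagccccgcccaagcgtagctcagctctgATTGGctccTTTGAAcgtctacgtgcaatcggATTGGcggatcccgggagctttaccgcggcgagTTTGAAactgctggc
Ccnb2: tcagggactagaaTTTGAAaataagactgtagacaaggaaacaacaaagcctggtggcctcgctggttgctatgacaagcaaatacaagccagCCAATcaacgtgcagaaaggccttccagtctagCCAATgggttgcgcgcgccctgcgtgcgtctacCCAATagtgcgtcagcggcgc
Cdc20: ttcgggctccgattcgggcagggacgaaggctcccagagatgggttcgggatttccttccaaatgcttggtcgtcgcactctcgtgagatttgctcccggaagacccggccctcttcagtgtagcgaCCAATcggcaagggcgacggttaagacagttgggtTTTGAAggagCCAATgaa
Mcm5: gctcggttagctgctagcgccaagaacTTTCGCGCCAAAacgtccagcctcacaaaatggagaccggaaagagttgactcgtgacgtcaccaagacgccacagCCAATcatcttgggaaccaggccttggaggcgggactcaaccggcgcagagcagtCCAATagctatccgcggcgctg
Mcm7: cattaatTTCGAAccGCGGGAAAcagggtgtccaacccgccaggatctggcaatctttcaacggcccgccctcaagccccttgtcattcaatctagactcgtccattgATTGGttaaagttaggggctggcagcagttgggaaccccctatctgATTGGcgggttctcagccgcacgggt
*Ube2c*, *Cdk1*, *Ccnb2* and *Cdc20* hold CHR and CCAAT matches in these letters. *Cdk1* is the G2/M member with an E2F match. In *Mcm5* a pair of E2F matches, 1 on each strand, overlaps by 4 bases, and *Mcm7* holds CHR, E2F and CCAAT matches. A match is a description of the letters and was not tested for binding.

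Member levels are given as UMIs of the members per 10,000 UMIs of all genes, summed over the cells of a population, with exact Poisson 95% intervals that cover counting error only. The 4 libraries held 2612 to 7474 cells and 35051876 to 121090404 UMIs before filters, and 824, 2194, 1673 and 5198 cells of runs 1, 2 and 3 and the explants were assigned to 1 population and kept. Their median depth was 9750.0 to 14784.5 UMIs, and any pair of libraries shared 0 to 6 cell barcodes. Classes of cells were named from marker genes after clustering without the members and without genes positively correlated with their sum. Genes that fall as the members rise were not removed, nor were those of weaker positive correlation. The basal list (*Krt5*, *Krt14*, *Trp63*, *Krt15* and *Col17a1*) summed to 93.5 to 117 per 10,000 in the intact basal-like cells of the 3 runs and to 2.04 to 12.7 in the luminal-like cells, whereas the luminal list (*Krt8*, *Krt18*, *Cd24a* and *Dpp4*) did not separate the compartments in runs 2 and 3. The fibroblast list summed to 36.2 to 38.6 in basal-like cells, nearly all of it *Dcn*, with *Col1a1* at no more than 0.00727, and its part in the results was not tested.

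In prostatic-like explant cells, the members were abundant on every day. The S members summed to 8.82 per 10,000 on day 0 (468 cells), 10.1 on day 1 (461 cells), 9.88 on day 3 (938 cells) and 10.0 on day 6 (1800 cells). The G2/M members summed to 11.5, 12.8, 18.1 and 17.3 on the same days. For G2/M the sum was 1.42 times as high on day 3 as on day 1 (interval 1.39 to 1.45), against 1.11 (1.08 to 1.14) for day 1 over day 0 and 0.955 (0.942 to 0.969) for day 6 over day 3. With each cell thinned to 5000 UMIs the order of the steps turned: the G2/M ratio was 1.28 (1.21 to 1.36) for day 1 over day 0, 1.18 (1.13 to 1.24) for day 3 over day 1 and 0.907 (0.880 to 0.935) for day 6 over day 3, and the S ratio for day 3 over day 1 was 0.909 (0.864 to 0.958).

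**Figure D1:**
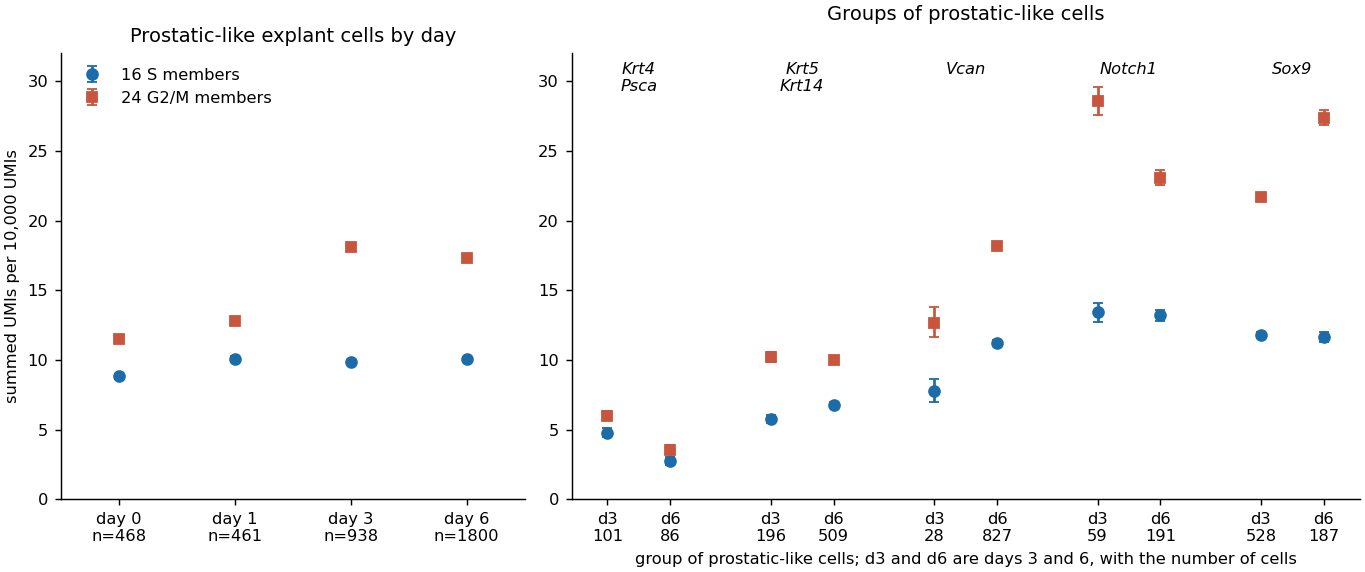
Summed UMIs of the S members (circles) and G2/M members (squares) per 10,000 UMIs with exact Poisson 95% intervals, for prostatic-like explant cells by day (left) and for groups of these cells on days 3 and 6 (right). The G2/M sum lies at 18.1 on day 3 against 12.8 on day 1, and the *Krt4* *Psca* group is the lowest group on both days.

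At the level of single members, none of the 40 differed 2-fold between neighbouring days, where 7.16%, 7.19% and 5.83% of all genes did so for days 0 to 1, 1 to 3 and 3 to 6. From day 0 to day 1, 34 of the 40 had a ratio above 1, from day 1 to day 3, 30 had, and from day 3 to day 6, 18 had. After thinning these counts were 36, 25 and 12, and with clustering at resolution 0.5 the last was 9. The share of all genes above 1 was not counted. The median member ratio was 0.159, 0.303 and -0.0346 on the log2 scale, and that of all genes was -0.0433, -0.0732 and -0.0273. *Ube2c*, the ubiquitin-conjugating enzyme of the anaphase-promoting complex, was the most abundant G2/M member, at 1.29, 1.42, 2.51 and 2.15 per 10,000 on days 0, 1, 3 and 6. It was also the member with the largest ratio of day 3 to day 1, 1.77 (1.67 to 1.88). *Top2a*, the topoisomerase that disentangles sister chromatids, was at 1.14, 1.26, 1.93 and 2.07, and *Cenpf*, a kinetochore protein, was at 1.05, 1.10, 1.498 and 1.49. *Birc5*, a subunit of the chromosomal passenger complex, was at 0.958, 1.05, 1.38 and 1.24. These members thus stood higher on days 3 and 6 than on days 0 and 1 before thinning, after which single levels are not given. The same held for *Cenpa*, the histone H3 of centromeres, at 0.689, 0.830, 1.02 and 1.10. It held for *Cdk1*, at 0.587, 0.711, 0.878 and 0.960, and for *Mki67*, which encodes the proliferation marker Ki-67, at 0.542, 0.631, 0.856 and 0.963. *Ccnb1*, a mitotic cyclin, was at 0.309, 0.336, 0.589 and 0.485, with a ratio of 1.75 from day 1 to day 3, and *Plk1*, a mitotic kinase, had a ratio of 1.71 and *Kif11*, a spindle motor, of 1.59.

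The S members followed different courses among themselves. *Slbp*, which binds the stem-loop of histone mRNAs, was at 1.34, 1.47, 1.23 and 1.51 per 10,000, and *Tyms*, the thymidylate synthase, was at 1.16, 1.31, 1.22 and 1.11. *Rrm2*, a subunit of ribonucleotide reductase, was at 0.631, 0.886, 1.09 and 1.09, a ratio of 1.40 (1.27 to 1.55) from day 0 to day 1. The other 3 of the 4 largest ratios of that step were those of *Cdc45*, a partner of the MCM helicase, at 1.58 (1.23 to 2.02), *Ccnb2*, a mitotic cyclin, at 1.34, and *Uhrf1*, which passes DNA methylation on to the new strand, at 1.32. Of the helicase subunits, *Mcm6* was at 0.732, 0.850, 0.880 and 0.912, *Mcm7* at 0.843, 0.788, 0.873 and 0.892, and *Mcm3* at 0.625, 0.775, 0.663 and 0.694. *Mcm3* had a ratio of 1.24 (1.12 to 1.37) from day 0 to day 1, and *Mcm2* one of 0.812 (0.733 to 0.899) from day 3 to day 6. *Cdc6*, which loads the helicase, had the lowest ratio from day 1 to day 3, 0.701 (0.563 to 0.875), and *Slbp* (0.840), *Mcm3* (0.856) and *Gins2*, another helicase partner (0.895), came next. From day 3 to day 6 the lowest ratios were those of G2/M members, with 0.754 (0.692 to 0.823) for *Cdc20*, the activator of the anaphase-promoting complex, 0.767 for *Ccnb2*, 0.802 for *Aurka*, a spindle pole kinase, and 0.805 for *Bub1b*, a spindle checkpoint kinase. The highest were those of *Slbp*, 1.22 (1.16 to 1.29), *Nusap1*, a spindle protein (1.14), *Mki67* (1.13) and *Gins2* (1.12).

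A cell was counted as high where its S sum or its G2/M sum reached 5 per 10,000. By this measure 54.7% of the prostatic-like cells were high on day 0, 62.5% on day 1, 56.9% on day 3 and 54.0% on day 6. After thinning the shares were 57.2%, 60.0%, 59.4% and 55.3%. The G2/M sum alone was high in 27.1%, 36.2%, 33.6% and 28.4%, and the S sum in 48.7%, 54.0%, 50.3% and 47.6%. The measure is a range and not a cell type, and 15.2% to 19.2% of the cells lay within 1 per 10,000 of either limit. High-G2/M cells held 93.7% to 96.9% of the G2/M UMIs of a day, and the other cells were at 0.857 to 1.32 per 10,000. The S sum was less confined: it was 13.0 to 15.7 in high-G2/M cells and 6.20 to 6.88 in the others. Between day 1 and day 3, the share of high-G2/M cells was thus 36.2% against 33.6%, while the summed G2/M level was 12.8 against 18.1. Cells without any member UMI made up 0.641% to 2.33% of a day.

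Other explant classes, over all days, lay on both sides of the prostatic-like cells. Mesonephric-like cells (658) had an S sum of 10.9 and a G2/M sum of 17.6 per 10,000, against 9.79 and 15.8 in 3667 prostatic-like cells. Urothelium-like cells (220) had 5.82 and 5.91. Cells of clusters led by hypoxia and stress genes (490) had 5.08 and 10.2, and on day 6 they had 3.77 and 8.70. Mesenchyme-like cells (163), whose median depth was 7851.0 UMIs, had 8.22 and 15.99. The wider lists of genes of the cycle had no 2-fold difference between neighbouring days in prostatic-like cells among 24 further S genes and 29 further G2/M genes, and among 15 regulators of cycle genes only *Lin52*, a subunit of the MuvB complex, was 2-fold lower on day 3 than on day 1.

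Within the prostatic-like cells, groups of clusters differed most in their member levels. The group with high *Krt4* and *Psca*, markers of proximal luminal cells, had an S sum of 4.77 and a G2/M sum of 6.00 per 10,000 on day 3 (101 cells), and 2.72 and 3.55 on day 6 (86 cells). The group with high *Krt5* and *Krt14*, basal keratins, had 5.76 and 10.2 on day 3 (196 cells) and 6.78 and 9.96 on day 6 (509 cells). The groups with high *Notch1*, *Sox9* and *Vcan* lay higher, with S sums of 13.4, 11.8 and 7.77 and G2/M sums of 28.6, 21.7 and 12.7 on day 3 (59, 528 and 28 cells). On day 6 their S sums were 13.2, 11.6 and 11.2 and their G2/M sums 23.1, 27.4 and 18.2 (191, 187 and 827 cells). High cells made up 28.7% and 9.30% of the *Krt4* *Psca* group on days 3 and 6, 32.1% and 33.0% of the *Krt5* *Krt14* group, and 71.2% and 79.7% of the *Sox9* group. The *Notch1* group was named from a list that holds *Ccnd1*, itself a gene of the cell cycle. The groups were made from these cells, and genes that fall as the members rise were not kept out of the clustering. The ratios between groups are therefore descriptions.

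Against all other prostatic-like cells of the day, 34 of the 40 members were at least 2-fold lower in the *Krt4* *Psca* group on day 3, where 15.6% of all genes were, and 39 of 40 on day 6, where 21.7% of all genes were. The median member ratio was -1.64 on the log2 scale on day 3 (all genes, -0.14) and -2.40 on day 6 (all genes, -0.25). All 24 G2/M members were among the lower ones on both days. *Ube2c* was at 0.868 in the group against 2.72 in the other cells on day 3 and at 0.400 against 2.24 on day 6. *Top2a* was at 0.572 against 2.10 and then at 0.378 against 2.16. *Ccna2*, cyclin A, was at 0.123 against 0.524 and at 0.0604 against 0.406. Of the S members, *Rrm2* had ratios of 0.254 and 0.153, *Mcm3* of 0.478 and 0.0937, and *Uhrf1* of 0.321 and 0.0632 (0.0205 to 0.148). The 6 members less than 2-fold lower on day 3 were all S members, namely *Mcm2*, *Mcm4*, *Gins2*, *Ung*, which removes uracil from DNA, *Pcna* and *Slbp*. *Slbp* alone was less than 2-fold lower on day 6, with ratios of 0.718 and 0.680. Of the further S genes, 20 of 24 were 2-fold lower on day 3 and 23 of 24 on day 6, as were 21 of 29 further G2/M genes on either day. Of the regulators, 5 of 14 with enough UMIs were lower on day 3, among them *E2f1* and *Foxm1*, an activator of G2/M genes, and 7 of 15 on day 6.

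**Figure D2:**
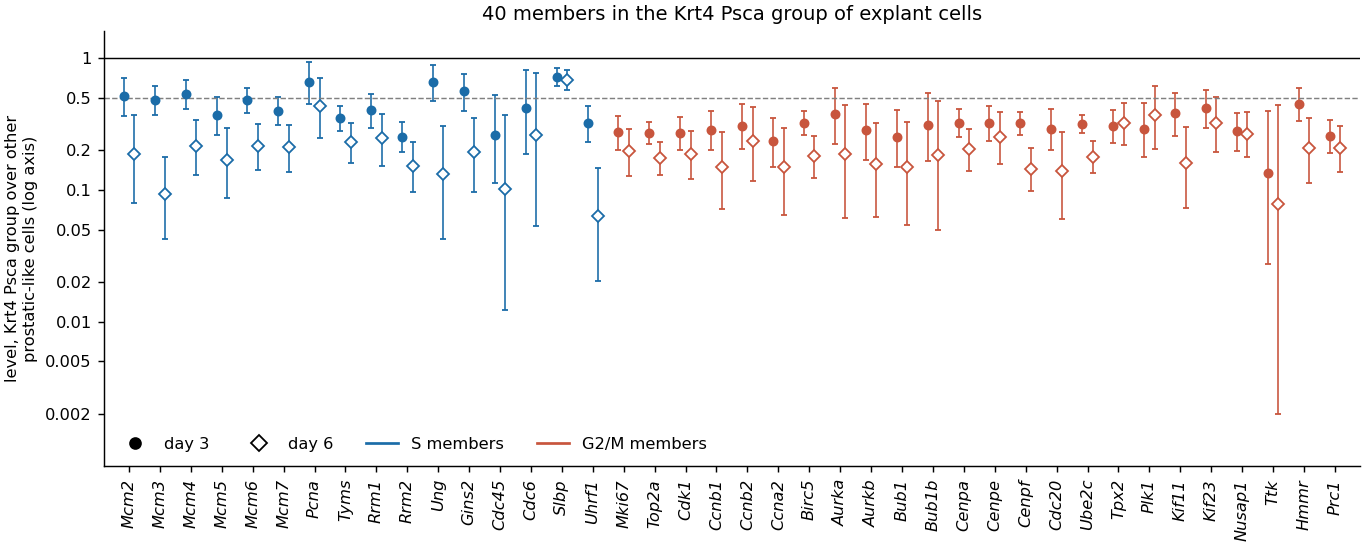
Ratio of each member's level in the *Krt4* *Psca* group to that in all other prostatic-like cells on day 3 (filled circles) and day 6 (open diamonds), on a log axis with 95% intervals. All 40 ratios lie below 1 on both days, and *Slbp* lies near 0.7 on both days.

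In the *Krt5* *Krt14* group, 22 members were at least 2-fold lower than in the other cells on day 3 (8.06% of all genes) and 17 on day 6 (6.16%). *Bub1*, a spindle checkpoint kinase, had ratios of 0.387 and 0.341 there, whereas *Slbp* had 0.888 and 0.960. In the *Sox9* group, 10 members were at least 2-fold higher on day 3 (4.95% of all genes) and 4 on day 6 (1.79%). The 4 of day 6 were *Aurkb*, the kinase of the chromosomal passenger complex, *Bub1*, *Bub1b* and *Ttk*, which serve the spindle checkpoint or its kinetochores. *Bub1* was 2.20-fold and 2.23-fold higher in that group on days 3 and 6, and *Ttk* 2.71-fold and 2.29-fold. In the *Notch1* group, 2 members were 2-fold higher on day 3 (3.21% of all genes), *Prc1*, which bundles the central spindle (2.13-fold), and *Cdc45* (2.35-fold), and none on day 6 (2.68%).

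Thinned prostatic-like cells were also split on a UMI of *Runx1*, which is not among the genes that named the groups. Cells with a *Runx1* UMI had 7.04 and 10.8 on day 3 (232 cells), against 9.497 and 14.97, and 6.45 and 11.6 on day 6 (429 cells), against 9.65 and 13.0. The share of high cells on day 6 was 46.2% with and 58.2% without a *Runx1* UMI. Before thinning the median depth on day 6 was 12604.0 UMIs with and 14253.5 without a *Runx1* UMI. A cell without a UMI may still express the gene, a UMI may come from free RNA, and no background share was set for this split.

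In the adult prostate of intact mice the member levels were lower than in the explants, and the S and G2/M members differed between compartments in opposite directions. The S sum of basal-like cells was 3.05, 3.05 and 3.20 per 10,000 in runs 1, 2 and 3 (270, 379 and 1078 cells), a mean of 3.102 ± 0.0884 (SD, n = 3), whereas that of luminal-like cells was 1.19, 0.936 and 0.824 (365, 571 and 519 cells), a mean of 0.984 ± 0.189. The G2/M sum of basal-like cells was 0.264, 0.792 and 0.761, a mean of 0.606 ± 0.296, and that of luminal-like cells was 0.999, 1.80 and 0.862, a mean of 1.22 ± 0.505. The S sums did not overlap between the compartments. The G2/M sums did not overlap either, though the lowest luminal-like and the highest basal-like run differed by less than the SD. How many of all genes lacked overlap between the compartments was not counted.

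**Figure D3:**
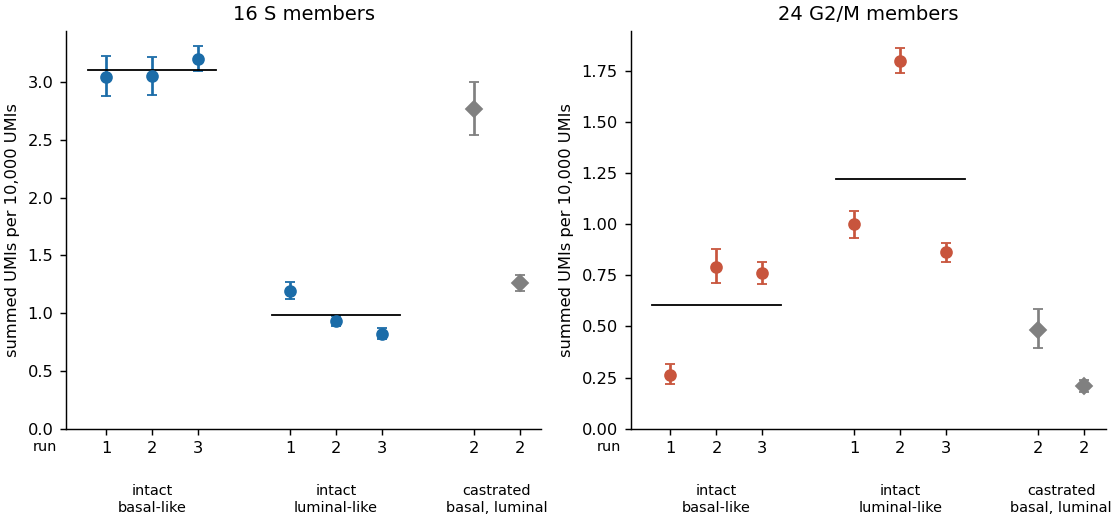
Summed S members and G2/M members per 10,000 UMIs with exact Poisson 95% intervals, by run, for intact basal-like and luminal-like cells and for castrated cells of run 2. Basal-like S sums lie near 3 in each run and luminal-like S sums near 1, whereas luminal-like G2/M sums reach 1.80 in run 2 and castrated luminal-like cells lie at 0.207.

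The G2/M sums of adult cells rested on few cells. In luminal-like cells, 5, 19 and 7 high-G2/M cells of runs 1, 2 and 3 held 83.5%, 88.3% and 74.6% of the G2/M UMIs, and a single cell held 41.9%, 18.0% and 37.5%. The other luminal-like cells were at 0.167 to 0.223 per 10,000, near the 0.255 to 0.271 of the other basal-like cells. In basal-like cells, 1, 7 and 4 cells were high for G2/M, and they held 3.67%, 66.9% and 65.5% of the G2/M UMIs in runs 1, 2 and 3, with a single cell holding 28.8% in run 2 and 40.3% in run 3. The S sum was spread more widely, with 36, 53 and 181 basal-like cells high for S (13.3%, 13.98% and 16.8%), against 13, 14 and 10 luminal-like cells (3.56%, 2.45% and 1.93%). Median depths of the cells not high for S were 10647.0, 8327.5 and 8930.0 UMIs in basal-like and 17489.5, 26950.0 and 18838.0 in luminal-like cells. At the lower depths few UMIs bring a cell to the limit, and counting error alone can do so. Whether the cells high for S were in S phase was not tested. Markers of hematopoietic cells (*Ptprc*, *Cd74*, *Itgam*, *Cd3d* and *Laptm5*) summed to at most 0.0854 per 10,000 in the high-G2/M luminal-like cells of any run, against 0.0132 to 0.427 in the other luminal-like cells.

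Between intact basal-like and luminal-like cells, summed per run, 37 members passed the filter on low counts. By edgeR's quasi-likelihood test with Benjamini-Hochberg adjustment, 7 were higher in basal-like cells, where 22.9% of all genes tested were, and 8 were lower, where 23.2% of all genes were. All 7 were S members and all 8 were G2/M members, and the median over the 37 was -0.95 log2 units. The shares of 7 and 8 of 37 lie near those of all genes in this fit. With run as a block, 10 members were higher and 17 lower, where 28.4% of all genes were higher and 28.4% lower. Since the classes were made from the same cells, the p-values describe the classes, and they measure the spread between runs only.

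Of the S members, *Mcm3* was at 0.148, 0.166 and 0.0708 per 10,000 in basal-like cells of runs 1, 2 and 3 and at 0.0436, 0.0169 and 0.0143 in luminal-like cells, a log2 fold change of 1.87 ± 0.38 (SE; adjusted p = 0.00546). The MCM subunits *Mcm4* (1.63), *Mcm5* (1.56) and *Mcm7* (1.08) were also higher, each without overlap of the runs. The share of all genes without such overlap was not counted. *Rrm2* was at 0.308, 0.306 and 0.338 against 0.0403, 0.106 and 0.0344, a log2 fold change of 1.74 ± 0.47 (adjusted p = 0.0189). *Slbp* was the most abundant member of both compartments, at 0.679, 0.963 and 1.24 against 0.245, 0.225 and 0.265, with a log2 fold change of 1.42 ± 0.33 (adjusted p = 0.00973). *Gins2* completes the 7, at 1.05. *Pcna* was at 0.107, 0.191 and 0.397 against 0.0313, 0.0513 and 0.0908, and missed the threshold (1.42 ± 0.64, adjusted p = 0.110). *Tyms* was at 0.233, 0.226 and 0.172 against 0.157, 0.160 and 0.0915, with a log2 fold change of 0.04.

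Of the G2/M members, *Ube2c* was at 0.00485, 0.0161 and 0.0278 in basal-like cells of runs 1, 2 and 3 and at 0.165, 0.160 and 0.0895 in luminal-like cells, a log2 fold change of -3.39 ± 0.48 (adjusted p = 0.00113). *Cdk1* was at 0.0194, 0.0207 and 0.0297 against 0.0839, 0.152 and 0.0545 (-2.57 ± 0.50, adjusted p = 0.00464). The cyclins *Ccnb2* (-2.53) and *Ccnb1* (-2.01) were also lower in basal-like cells, as were *Plk1* (-2.67), *Cenpe*, a kinetochore motor (-1.77), *Aurkb* (-1.62) and *Cdc20* (-1.61). *Cdc20* was at 0.0218, 0.0276 and 0.0392 against 0.0704, 0.0820 and 0.0415, so the lowest luminal-like run lay just above the highest basal-like run. *Top2a* (-2.29, adjusted p = 0.0516) and *Cenpf* (-1.58, adjusted p = 0.078), among the most abundant G2/M members, missed the threshold, and so did *Mki67* (-1.84, adjusted p = 0.0982). *Prc1* had a log2 fold change of 0.35.

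**Figure D4:**
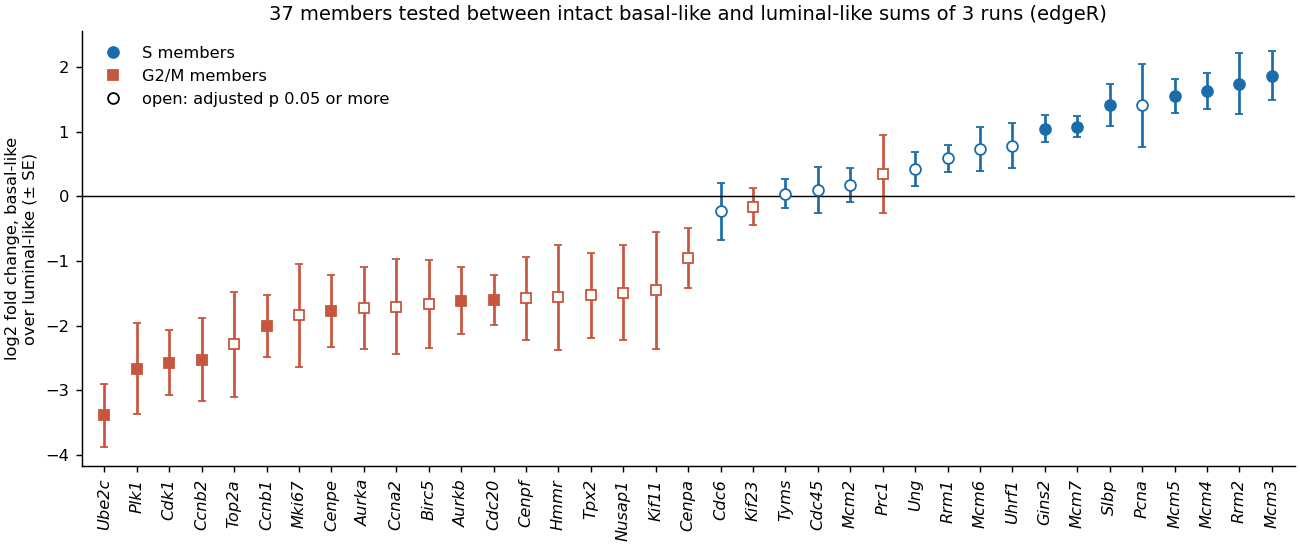
Log2 fold change of 37 members between intact basal-like and luminal-like sums of 3 runs, with the standard error; filled points passed the adjusted threshold. S members lie mostly above 0 and G2/M members mostly below, from -3.39 for *Ube2c* to 1.87 for *Mcm3*.

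Scaling and runs moved these counts. With total UMIs in place of the TMM scaling, an alternative chosen after seeing the data, the median of all genes was 0.55 log2 units higher in basal-like cells, and 10 members were higher (33.1% of all genes) and 5 lower (9.55%), the 5 being *Ube2c*, *Plk1*, *Cdk1*, *Ccnb2* and *Ccnb1*. Without run 1, 9 of 37 members were higher and 16 lower, where 26.1% and 26.6% of all genes were. Without run 2, 4 and 3 of 36 were (11.7% and 13.0% of all genes), and without run 3, 6 and 3 of 33 (11.9% and 11.8%). No member called changed direction in these fits. In the main fit 22.9% of all genes were higher in basal-like cells and 23.2% lower. Of the further S genes, 7 of 21 tested were higher there and none lower, among them *Dtl*, *Pola1* and *Hells*. Of the further G2/M genes, 5 of 25 were higher, among them *Tmpo* and *Hmgb2*, and 6 lower, among them *Cdca3* and *Anln*. Of the regulators, *E2f1*, *E2f2* and *Rbl2* of 12 tested were lower in basal-like cells and none was higher. The counts of further G2/M genes and of lower regulators lie near the shares of all genes.

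Within the luminal-like cells of the AP, RFP+ cells were compared with RFP- cells to ask whether cells with *Runx1* promoter activity differ in the members. The S sum was 1.81, 1.49 and 1.46 per 10,000 in RFP+ cells of runs 1, 2 and 3 and 1.10, 0.882 and 0.807 in RFP- cells, with no overlap. How many of all genes also lacked overlap was not counted. The G2/M sum was 1.30, 2.24 and 0.990 against 1.695, 0.981 and 0.260, with overlap. Of 16 members tested, 3 were higher in RFP+ cells, where 13.6% of all genes were, and none was lower. The count of 3 of 16 lies near that share, and no share is given for lower genes. *Mcm6* was at 0.311, 0.0790 and 0.133 against 0.0578, 0.0537 and 0.0144 (log2 fold change 1.69 ± 0.47, adjusted p = 0.0258). *Cenpf* was at 0.160, 0.152 and 0.127 against 0.0706, 0.0566 and 0.0144 (1.29 ± 0.36, adjusted p = 0.0262). *Mcm7* was at 0.188, 0.119 and 0.116 against 0.0835, 0.0596 and 0.0721 (0.88 ± 0.27, adjusted p = 0.0416). *Slbp* (0.45), *Tyms* (0.68), *Ube2c* (-0.28), *Top2a* (-0.15) and *Cdk1* (0.09), the other most abundant members, did not pass. With total UMIs in place of TMM, which moved the median of all genes by 0.14 log2 units, *Mcm6* and *Cenpf* passed. None of the 3 calls was kept when any single run was left out. The hematopoietic list stood at 0.997, 2.13 and 0.00553 per 10,000 in the RFP+ sums, mostly *Cd74*, and at 0.0578, 0.0805 and 0 in the RFP- sums, and its part in the result was not tested. The basal list stood at 27.7, 13.3 and 11.6 in the RFP+ sums and at 5.16, 2.13 and 0.908 in the RFP- sums. The part of the basal list was not tested either.

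In AP basal-like cells the S sum was 2.74, 3.04 and 2.43 in RFP+ cells and 4.08, 2.97 and 2.99 in RFP- cells of runs 1, 2 and 3. No member of 13 tested passed, where 0.0% of all genes did by edgeR, and at an unadjusted p below 0.05 were 2 members, *Mcm5* (-1.46 ± 0.50) and *Tyms* (-0.76 ± 0.32), of 100 genes. DESeq2 called 0 of these members. With run as a block, *Mcm5* was called lower in RFP+ cells, where 0.234% of all genes were. *Slbp*, *Rrm2*, *Pcna* and *Mcm4*, the S members of highest level, had log2 fold changes of 0.11, -0.46, -0.13 and -0.16, and *Prc1*, the sole G2/M member tested there, had 0.67. The G2/M sum of RFP+ cells was 0.229 and 0.312 in runs 1 and 2 and 2.07 in run 3, where 2 high-G2/M cells were found. *Cenpf* shows it, at 0.00739, 0.0290 and 0.342 in the 3 runs.

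In VP cells no member passed between RFP+ and RFP-. In luminal-like cells, with RFP+ sums of 3 runs and RFP- sums of runs 2 and 3, 0 of 22 members did (0.388% of all genes by edgeR) and 0 had an unadjusted p below 0.05, and DESeq2 also called 0. Members of high level there, *Slbp*, *Tyms*, *Rrm2* and *Pcna* of the S members and *Cenpf*, *Top2a*, *Ube2c* and *Cdk1* of the G2/M members, had log2 fold changes of -0.02, 0.16, 1.27, 0.33, -0.12, 0.43, 1.76 and 1.40. *Mki67*, whose average level in the fit lay above those of *Ube2c* and *Cdk1*, had -0.20. The G2/M sum of VP RFP+ luminal-like cells differed widely between runs, at 0.156, 2.56 and 0.610, against 0.910 and 0.728 in RFP- cells of runs 2 and 3. *Ube2c* was at 0, 0.263 and 0.0356 there, and *Cdk1* at 0.0568, 0.217 and 0.0428. With run as a block, 5 members were higher in RFP+ cells (*Ube2c*, *Prc1*, *Cdk1*, *Birc5* and *Rrm2*) of 25 tested, where 1.37% of all genes were, and with no filter on low counts 4 of 40 were, where 0.714% of all genes were. In VP basal-like cells 0 of 11 members passed by edgeR (0.2% of all genes) or by DESeq2, with 0 at an unadjusted p below 0.05. *Slbp*, *Mcm7*, *Pcna* and *Tyms* had log2 fold changes of -0.01, 0.25, -0.62 and -0.37, and the S sum was 4.05, 2.99 and 2.93 in RFP+ cells against 2.48 and 3.27 in RFP- cells of runs 2 and 3.

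Between lobes, 1 of 11 members differed in RFP- luminal-like cells, where 7.47% of all genes were lower in AP. *Cenpf* was at 0.0706, 0.0566 and 0.0144 in AP and at 0.10 and 0.218 in VP cells of runs 2 and 3 (log2 fold change -2.49 ± 0.51, adjusted p = 0.00994). *Mki67* had -1.54 ± 0.59 (adjusted p = 0.117), and *Slbp*, *Tyms*, *Rrm1*, *Gins2* and *Top2a* had -0.33, -0.99, 0.26, -0.49 and -0.42. Without run 3, *Cenpf* was not called. With total UMIs in place of TMM, which moved the median of all genes by 1.05 log2 units, 62.8% of all genes were called higher in AP, among them *Mcm7* and *Rrm1*, and *Cenpf* was lower. In RFP+ basal-like cells none of 11 members passed by edgeR (0.415% of all genes) and 1 had an unadjusted p below 0.05, *Mcm7* (-0.91 ± 0.39), at 0.244, 0.196 and 0.101 in AP and 0.584, 0.245 and 0.242 in VP. *Slbp*, *Rrm2* and *Pcna* had -0.04, 0.19 and 0.18, and DESeq2 called 0 members. The DLP held RFP+ cells of intact mice in run 3 alone, where 329 basal-like cells had an S sum of 3.67 and a G2/M sum of 0.484, and 63 luminal-like cells had 1.11 and 0.266.

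Castrated and intact cells were compared by population within run 2, the run that held castrated cells by lobe, with 1 pool of mice per treatment and no test. In luminal-like cells the G2/M sum was lower after castration in all 4 populations with at least 10 cells on each side, whereas the S sum was 0.808 to 1.29 times that of intact cells. In VP RFP+ luminal-like cells (127 castrated, 190 intact) the G2/M sum was 0.149 against 2.56 per 10,000, a ratio of 0.0584 (0.0410 to 0.0807), and 0.0538 after thinning. Intact cells of this population were at 0.156 in run 1 and 0.610 in run 3, so the intact value of run 2 was the highest of the 3 runs and that of run 1 lay near the castrated value. In AP RFP+ luminal-like cells (196 and 100) it was 0.179 against 2.24, a ratio of 0.0797 (0.0599 to 0.104). This ratio was 0.408 after thinning, 0.282 in cells with fewer than 7500 UMIs, and 0.463 with the looser barcode thresholds, which added 3 castrated cells, 1 of which held all 305 added G2/M UMIs. In AP RFP- luminal-like cells (48 and 145) the G2/M sum was 0.265 against 0.981, a ratio of 0.271 (0.173 to 0.407). Intact cells of this population were at 1.695 in run 1 and 0.260 in run 3, so that of run 3 lay near the castrated value. Intact AP RFP+ luminal-like cells were at 1.30 and 0.990 in these runs. In DLP RFP- cells (25 and 71) the G2/M sum was 0.187 against 0.306, a ratio of 0.609 (0.275 to 1.22), with 0 and 7 UMIs after thinning.

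Cells high for G2/M numbered 17 of 506 intact luminal-like cells in these 4 populations (3.36%) and 0 of 396 castrated cells, which allows a share of up to 0.758% by counting error alone, over cells of 1 pool of mice per treatment. The intact high cells numbered 8 in VP RFP+, 3 in AP RFP+, 4 in AP RFP- and 2 in DLP RFP- cells. High cells held 88.3% of the G2/M UMIs of all intact luminal-like cells of run 2, so member ratios there rest on few cells. Over all luminal-like cells of run 2, cells high for G2/M numbered 19 of 571 intact and 1 of 555 castrated cells. Cells high for S numbered 14 of 571 intact and 10 of 555 castrated luminal-like cells. The median depth was 46515.0 UMIs in intact and 13265.0 in castrated VP RFP+ luminal-like cells, and 9982.0 and 12016.5 in AP RFP+ luminal-like cells. Most intact luminal-like cells of run 2 (462) lay in clusters named by distal luminal genes and most castrated ones (452) in clusters named by the luminal list. In the clusters named by distal luminal genes alone the G2/M sum was 1.92 in 462 intact and 0.284 in 58 castrated cells. After thinning to 5000 UMIs, 14 of 531 intact and 0 of 524 castrated luminal-like cells were high for G2/M.

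**Figure D5:**
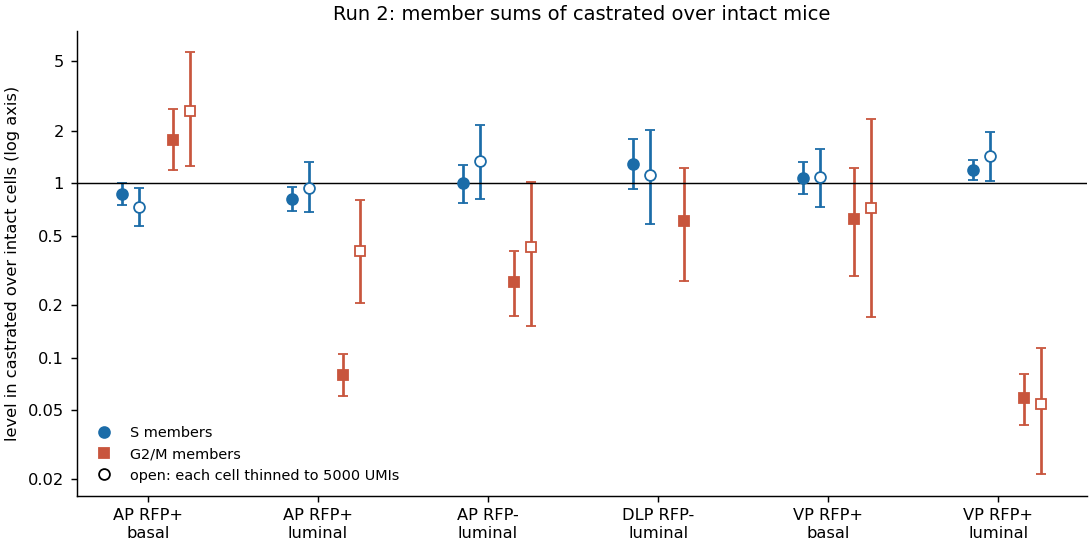
Ratio of the member sums in castrated over intact cells of run 2, by lobe, RFP gate and compartment, for S members (circles) and G2/M members (squares), on a log axis with 95% intervals; open points are after thinning each cell to 5000 UMIs. The G2/M ratio is lowest in VP RFP+ luminal-like cells, at 0.0584, and the S ratios lie near 1.

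In VP RFP+ luminal-like cells, 24 of 34 members with at least 20 UMIs over both sums were 2-fold lower in castrated cells, where 3.46% of all genes were, and 1 was higher, where 42.1% were. The median of all genes was 0.89 log2 units higher in the castrated sum. The intact sum held 9187443 UMIs and the castrated sum 2476394. Members at 0 in castrated cells, and also *Cenpf* and *Mki67*, passed the minimum of 20 UMIs through the intact sum alone. They could thus only be called lower. After thinning, 4 members passed it, of which *Mki67*, *Top2a* and *Cenpf* were lower and *Slbp* higher. *Ube2c* had 242 UMIs in intact cells (0.263 per 10,000) and 0 in castrated cells, so it was at least 21.7-fold lower, taking 3 UMIs in the castrated sum as the floor. *Birc5* (159 UMIs in intact cells) was at least 14.3-fold lower. *Hmmr*, a spindle protein, *Tpx2*, which activates Aurora A, *Ccnb1*, *Aurka*, *Plk1*, *Aurkb* and *Kif11* also had 0 UMIs, and were at least 6.92-, 6.38-, 5.75-, 4.4-, 3.59-, 3.05- and 2.7-fold lower. *Cenpf*, with 1 UMI in castrated cells, was at 0.00404 against 0.274 (ratio 0.0147, 0.000371 to 0.0828), *Top2a* at 0.0606 against 0.283, *Mki67* at 0.00808 against 0.202 and *Prc1* at 0.0283 against 0.212. Of the S members, *Rrm2* (0.0202 against 0.144), *Mcm5* (0.0121 against 0.0370) and *Ung* were 2-fold lower, while *Slbp* was 2.56-fold higher (2.01 to 3.24), at 0.493 against 0.193. *Tyms* (0.129 against 0.179), *Mcm6* (0.0929 against 0.0631), *Mcm7* (0.0888 against 0.0588), *Pcna* (0.0888 against 0.0544) and *Rrm1* (0.0646 against 0.0620) lay within 2-fold.

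In AP RFP+ luminal-like cells, 9 of 15 members were 2-fold lower (7.33% of all genes) and none higher, with a median of -2.84 log2 units. After thinning, 1 member had enough UMIs and 0 were lower. With the looser barcode thresholds 11 of 22 were lower, with a median of -1.02, and *Ube2c* was not among them. *Cenpf* had 27 UMIs in intact and 0 in castrated cells, at least 17.6-fold lower. *Cenpf* and *Mki67* passed the minimum of 20 UMIs through the intact sum alone, so they could only be called lower. *Mki67*, with 1 UMI in castrated cells, was at 0.00288 against 0.147 (ratio 0.0196, 0.000479 to 0.119), and *Ube2c*, *Rrm2*, *Birc5*, *Cdk1* and *Prc1* had ratios of 0.0494, 0.0498, 0.0510, 0.0551 and 0.0567. *Top2a* had 0.140 and *Tyms* 0.386, while *Mcm6* (1.64), *Slbp* (1.36), *Pcna* (1.21), *Rrm1* (0.913), *Mcm4* (0.829) and *Mcm7* (0.583) did not pass 2-fold. In AP RFP- luminal-like cells, 6 of 15 were 2-fold lower (15.4% of all genes): *Mki67* and *Birc5*, at 0 in castrated cells and at least 3.0- and 2.06-fold lower, *Cdk1* (1 UMI, ratio 0.105, 0.00258 to 0.624), *Cenpf* (1 UMI, ratio 0.187, 0.00451 to 1.18), *Ung* (2 UMIs, ratio 0.356, 0.0404 to 1.47) and *Top2a* (0.471). *Mki67* and *Birc5* passed the minimum of UMIs through the intact sum alone, so they could only be called lower. In DLP RFP- luminal-like cells only *Slbp* had enough UMIs, with a ratio of 1.52 (0.892 to 2.54), and 0 members were lower, against 12.7% of all genes. *Slbp* thus had a ratio above 1 in each of the 4 luminal-like populations.

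In AP RFP+ basal-like cells (155 castrated, 118 intact) the S sum was 2.63 against 3.04, a ratio of 0.865 (0.746 to 1.00), and the G2/M sum was 0.552 against 0.312, a ratio of 1.77 (1.19 to 2.65). Of 11 members with enough UMIs, *Gins2* (0.272) and *Rrm2* (0.466) were 2-fold lower, where 12.7% of all genes were. *Mcm6* had 1.55 and *Slbp* 1.09. In VP RFP+ basal-like cells (80 and 78) the S sum was 3.20 against 2.99, a ratio of 1.07 that was 2.06 in cells with fewer than 7500 UMIs, and the G2/M sum 0.289 against 0.465, a ratio of 0.621 (0.295 to 1.21). Of 7 members there, *Pcna* (4.59) and *Slbp* (2.15) were 2-fold higher, *Mcm4* was lower (3 UMIs, ratio 0.328, 0.0618 to 1.12), and *Mcm3*, with 20 UMIs in intact and 0 in castrated cells, was at least 3.39-fold lower, where 18.3% of all genes differed in either direction. *Mcm3* passed the minimum of 20 UMIs through the intact sum alone, so it could only be called lower. The median depth of the castrated basal-like cells was 5459.0 and 3633.0 UMIs in these populations, against 8759.5 and 8034.5 in intact cells.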

How the data were processed

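Cells were profiled by 10x 3′ v3 scRNA-seq. The deposited UMI count matrices were made by the authors with Cell Ranger 3.1.0 on mm10 (GRCm38), and their Seurat 3.1.5 is named in the submitters' processing notes. UMI counts of MULTI-seq barcodes were deposited beside them. Barcode thresholds were those of the study's methods (HTODemux and additional thresholds), and cells with several barcodes were removed as doublets, with no further doublet caller. Adult cells with 750 to 7500 genes and under 10% mitochondrial UMIs and explant cells with at least 1000 genes and under 7.5% were kept. Cells were clustered without the members and without genes correlated with their sum (r over 0.15), on 2000 variable genes, 30 components, 20 neighbours and resolution 1.0, in Python 3.11.15 with scikit-learn 1.9.0 and leidenalg 0.10.2. A cluster of at least 20 cells was named where at least 3 markers of a class had a UMI in 30% of its cells. This naming rule, the comparisons of prostatic-like groups and the scaling by total UMIs were chosen after seeing the data, and the members and gene lists were chosen with earlier results of these data known.

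Counts were summed per run over at least 10 cells and tested with edgeR 4.0.16 in R 4.3.3 (quasi-likelihood, TMM, filterByExpr, two-sided, Benjamini-Hochberg over all genes, threshold 0.05). Depth was 35051876 to 121090404 UMIs per library. Explant days, prostatic-like groups and castration in run 2 had no replicates and were described by 2-fold ratios of members with at least 20 UMIs over both sums. In the tests, the members past the threshold (the 12 of largest change if more) and the 4 S and 4 G2/M members of highest level were named. For explant days and run 2, the 6 S and 6 G2/M members of highest level and the 4 largest and 4 smallest ratios were. Same-run sums came from the same run of mice, and their deviations from the group means correlated by 0.242 to 0.457 (basal-like against luminal-like), 0.327 to 0.461 (AP luminal-like) and 0.0163 to 0.668 over all comparisons. Alternatives were DESeq2 1.42.0, no filter, the run as a block, other library sizes, each run left out, at least 20 cells, fewer than 7500 UMIs, resolution 0.5, thinning to 5000 UMIs, looser barcode thresholds, and other limits for a high cell. In simulated basal-like and luminal-like sums of 11848 genes, 72.2% of 90 genes changed 4-fold and 16.0% of 106 genes changed 2-fold were recovered.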

Additional observations from a re-analysis of the deposited data

How the results depend on the processing

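Of 191 values of 19 called members under other settings, 161 kept direction and call, 30 lost the call and 0 reversed. Of these, 11 were lost without run 2, 9 without run 3 and 3 without run 1. The causes were not tested. Members called higher and lower in basal-like cells numbered 4 to 9 and 3 to 16 with a run left out, 2 and 0 below 7500 UMIs, where 2 members were tested, and 10 and 5 with total UMIs. With the replicate block, paired by run, they numbered 10 and 17. The block also gave 4 higher in AP luminal-like RFP+ cells, 1 lower in AP basal-like RFP+ cells, 5 higher in VP luminal-like RFP+ cells and 2 lower in AP RFP- luminal-like cells, and changed no other count of calls. It kept runs with both sides, which were runs 2 and 3 for the VP gates and for lobes in RFP- luminal-like cells. In AP luminal-like cells 0 were higher with any run left out or below 7500 UMIs, and 0 to 1 lower with a run left out. With no filter, 1 was lower in AP luminal-like RFP+ cells, 4 were higher in VP luminal-like and 1 lower in VP basal-like RFP+ cells, 1 was higher and 2 lower between lobes in RFP- luminal-like cells, and 1 higher and 1 lower in RFP+ basal-like cells. In VP basal-like cells 0 to 1 were lower with a run left out. With total UMIs 2 were higher in AP RFP- luminal-like cells. Fits below 7500 UMIs were not possible for VP luminal-like cells or for lobes in RFP- luminal-like cells. The share of all genes called also moved between these settings. The counts in this paragraph stand without that share, so they describe the settings and are not results about the members.

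In prostatic-like explant cells, thinning gave G2/M ratios of 1.28, 1.18 and 0.907 for the 3 steps between days and an S ratio of 0.909 from day 1 to day 3. Looser barcode thresholds gave 1.14 for G2/M from day 0 to day 1. From day 3 to day 6, resolution 0.5 gave 0.966 for S and 0.903 for G2/M, and G2/M without *Top2a* and *Mki67* was 0.931. Over all explant cells without the hypoxia and stress clusters, the S ratios were 1.09, 0.917 and 1.02 and the G2/M ratios 1.16, 1.19 and 1.03, so the last step reversed from 0.976 and 0.973. In run 2, thinning gave S ratios of 0.730 in AP RFP+ basal-like, 1.34 in AP RFP- luminal-like and 1.43 in VP RFP+ luminal-like cells, and G2/M ratios of 0.408, 0.433 and 0.0 in AP RFP+, AP RFP- and DLP RFP- luminal-like cells. Looser thresholds gave 0.463 for G2/M in AP RFP+ luminal-like cells. Below 7500 UMIs these cells had 0.627 for S and 0.282 for G2/M, and VP RFP+ basal-like cells had 2.06 for S.

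With limits of 3 and 10 per 10,000, high cells made up 75.0% and 36.8% on day 0, 76.8% and 45.1% on day 1, 71.1% and 44.2% on day 3, and 70.3% and 39.2% on day 6, where resolution 0.5 gave 49.8%. In intact basal-like cells of runs 1, 2 and 3 they made up 34.8% and 2.96%, 36.4% and 3.17%, and 44.2% and 1.86%, with 18.9% and 21.1% after thinning in runs 2 and 3. In luminal-like cells they made up 10.1% and 1.92%, 7.53% and 2.45%, and 7.71% and 1.16%. In castrated cells of run 2 they made up 44.6% and 3.28% of basal-like and 9.19% and 0.360% of luminal-like cells, the latter 4.198% after thinning.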

Other observations

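Hematopoietic-like cells were left out of the comparisons. In run 2 their S sum was 3.88 and their G2/M sum 8.10 per 10,000 in 241 intact cells, of which 29 were high for G2/M, and 3.48 and 5.10 in 77 castrated cells, of which 14 were high. In run 1 39 intact cells had 3.77 and 3.14, but a single cell held 72.6% of their G2/M UMIs and the others were at 0.925. Endothelial-like cells of run 1 (53) had 2.16 and 2.55.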
